A study of Mus musculus with 6 samples.

Results

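The genes described here are 9 transcription factor genes that mark neural tissue and neural crest: Sox1, Sox2, Sox3, Pax6, Olig2, Neurog2, Gbx2, Sox10 and Foxd3. They were taken by name from a table of 19342 gene names, and all 9 were among the 13539 genes analysed. The table holds counts of RNA reads per gene for mouse (C57BL/6) mesoderm progenitor cells, which come from the embryo's tail end. There were 6 libraries, 1 per condition. Cells at 0 h and at 96 h of culture had no growth factor. In the other 4, recombinant human proteins were added once 96 h had passed. One pair had 5 h of treatment (labelled 101 h in culture), either BMP4 or BMP4 plus FGF8, and the other pair had 11 h (labelled 107 h), either BMP4 or BMP4 plus FGF4. The labels' protocols give serum-containing medium and a layer of mitomycin C-treated feeder fibroblasts from wild-type C57BL/6 mice, whose RNA can be part of a library. In RNA from a whole culture, fewer cells of a type and less RNA per cell cannot be told apart.

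In the elongating embryo, axial progenitors at the tail end give rise to both spinal cord and presomitic mesoderm. Cells of this kind carry Sox2, a factor of the neural fate, together with T (Brachyury), a factor of the mesodermal fate. BMP signalling restrains neural fate in the early ectoderm, and FGF signalling keeps progenitors in an undifferentiated state. Sox1, Sox2 and Sox3 form the SOXB1 group, which holds neural cells in a progenitor state. Pax6, Olig2 and Neurog2 act later, in patterning the neural tube and starting neurogenesis, and Sox10 and Foxd3 act in neural crest.

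Total counts per library ran from 179196459 to 272743104, and 3 counts corresponded to between 0.0115 and 0.0186 CPM (read counts scaled by the TMM effective library size). Each condition had 1 library, so no ratio between libraries has a replicate check or a p-value, and the intervals given cover counting error only. No untreated library was kept in culture as long as the treated ones. The counts of the untreated libraries stand beside their gene names, whereas the other 4 columns had to be matched to the names. T, a defining gene of tailbud progenitors, was at 86.9 CPM at 0 h. Both libraries labelled 5 h were nearer to 0 h than to 96 h, although their labels give 101 h in culture. From 0 h, 0.347% of all genes differed at least 2-fold with BMP4 and 0.244% with BMP4 and FGF8, against 5.26% and 5.35% from 96 h.

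The 3 members whose levels differed at least 2-fold both after culture and between the BMP4 libraries were Gbx2, Olig2 and Neurog2. The sequences just before their annotated starts are shown so that these genes can be compared at the site where their transcription begins. Sequences are from RefSeq (GRCm38.p6) and run up to 250 bases before the RefSeq start, without bases that GENCODE M21 places inside the gene. Capitals mark CANNTG, the E-box read by basic helix-loop-helix factors such as Olig2 and Neurog2, and GGCGCC, a GC-rich element that BMP-activated SMAD proteins can bind. Both strands were searched, and the 2 kinds of match do not overlap.
Gbx2, chr1:89931180-89931426, minus strand: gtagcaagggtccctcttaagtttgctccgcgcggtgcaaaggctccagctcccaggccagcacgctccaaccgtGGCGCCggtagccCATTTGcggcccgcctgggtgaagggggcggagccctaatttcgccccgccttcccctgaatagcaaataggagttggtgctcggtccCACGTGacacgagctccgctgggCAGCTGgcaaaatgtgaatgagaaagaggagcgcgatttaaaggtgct
Olig2, chr16:91225300-91225456, plus strand: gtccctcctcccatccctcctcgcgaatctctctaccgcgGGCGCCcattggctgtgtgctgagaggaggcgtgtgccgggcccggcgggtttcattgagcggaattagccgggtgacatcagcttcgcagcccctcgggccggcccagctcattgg
Neurog2, chr3:127632886-127633134, plus strand: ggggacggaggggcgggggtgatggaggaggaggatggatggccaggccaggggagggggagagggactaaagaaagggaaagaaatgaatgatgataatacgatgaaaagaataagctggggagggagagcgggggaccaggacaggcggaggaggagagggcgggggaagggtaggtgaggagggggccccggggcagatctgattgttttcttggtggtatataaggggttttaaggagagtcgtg
The Gbx2 stretch holds 3 E-box letters and 1 GGCGCC, the Olig2 stretch 1 GGCGCC and no CANNTG, and the Neurog2 stretch has no match to either. Of 32851 RefSeq promoters read over 250 bases, 66.2% hold CANNTG and 9.59% hold GGCGCC. Over its full 250 bases before the RefSeq start, part of which lies inside the GENCODE gene, Olig2 holds 2 GGCGCC. Of the other letters searched, TTTATG (in 10.8% of promoters) and ACAAAG (16.5%) are in none of the 3 genes' windows, and TATAAA (12.4%) is in that of Olig2 only. These are matches of letters, not measured binding.

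At the annotated loci (GENCODE M21, the mm10 build), several members share their position with another transcript. Sox2 (chromosome 3, 34650405 to 34652461, plus strand) lies within the long noncoding gene Sox2ot on the same strand, and Pax6 (chromosome 2, 105668900 to 105697364, plus strand) overlaps the start of its antisense gene Pax6os1. Strand cannot separate reads of Sox2 and Sox2ot, which lie on the same strand. A stranded kit was used, per the labels' protocols, but how reads were assigned to strands in counting is not given. Reads of Pax6 and Pax6os1 may therefore not be fully separated either. Pax6os1 was listed at 359 to 523 CPM and Sox2ot at 37.2 to 43.1 CPM. Sox1 lies within Sox1ot on chromosome 8 (12395295 to 12400126) and holds an annotated miRNA gene, and Gbx2 overlaps a processed transcript on the other strand of chromosome 1 (89927956 to 89931179). None of those partners is among the gene names used here. Sox3 (chromosome X, 60891366 to 60893430), Olig2 (chromosome 16, 91225457 to 91228677), Neurog2 (chromosome 3, 127633135 to 127635631) and Sox10 (chromosome 15, 79154908 to 79165240) overlap no other annotated gene. Foxd3 (chromosome 4, 99656299 to 99658622) overlaps only an annotated miRNA gene.

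**Figure D1:**
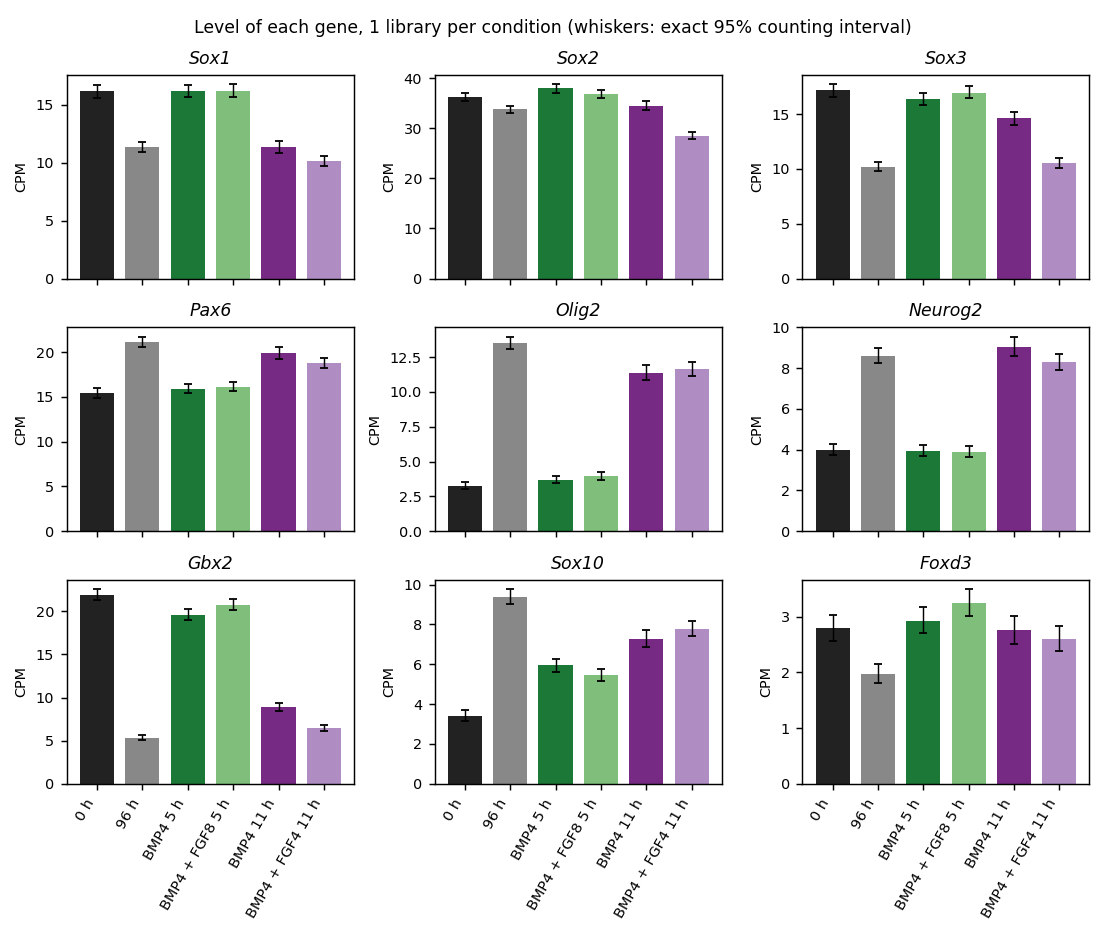
Level of each of the 9 genes in CPM (vertical axis, from 0) in the 6 libraries, 1 bar per library, with whiskers for the exact 95% counting interval. Olig2 and Neurog2 are low at 0 h and in both 5 h libraries and high at 96 h and in both 11 h libraries, Gbx2 shows the opposite order, and Sox2 changes least.

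Per length, Sox2 was the most abundant member, with a mean of 16.8 CPM per kilobase of exon over the 6 libraries. Sox3 (6.94 CPM per kilobase) and Gbx2 (6.35) followed, then Olig2 (3.12), Neurog2 (2.83), Sox1 (2.81), Sox10 (2.14), Pax6 (1.53) and Foxd3 (1.17). The order differed between libraries: at 0 h Gbx2 (10.1 CPM per kilobase) was above Sox3 (8.31), and at 96 h Olig2 (5.34) came after Sox2 and above Sox3 (4.94), with Gbx2 at 2.45. The mean CPM of Sox2 was above that of 71.3% of the analysed genes, and that of Foxd3 above 16.2%. All 9 genes were thus well above the floor of 3 counts in every library.

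The SOXB1 genes varied by at most 1.68 times between any 2 libraries. Sox2 was at 36.3 CPM at 0 h, 33.8 at 96 h, 37.96 with BMP4 5 h, 36.8 with BMP4 and FGF8, 34.5 with BMP4 11 h and 28.5 with BMP4 and FGF4. Its highest level was 1.33 times its lowest, the smallest span among the 9 genes. Sox1 was at 16.2 CPM at 0 h, 11.3 at 96 h, 16.2 with BMP4 5 h, 16.2 with BMP4 and FGF8, 11.4 with BMP4 11 h and 10.1 with BMP4 and FGF4. The 0 h library and both 5 h libraries were therefore high in Sox1, and the other 3 libraries low, with no overlap of the counting intervals. Sox3 was at 17.2 CPM at 0 h, 10.2 at 96 h, 16.4 with BMP4 5 h, 17.0 with BMP4 and FGF8, 14.6 with BMP4 11 h and 10.6 with BMP4 and FGF4. Here the BMP4 11 h library was nearer to the 5 h libraries, and the BMP4 with FGF4 library nearer to 96 h.

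Sox2 made up 52.1% of the summed SOXB1 CPM at 0 h and 61.1% at 96 h, while Sox3 went from 24.7% to 18.4%. The sum was 69.6 CPM at 0 h, 55.3 at 96 h, 70.6 with BMP4 5 h, 70.1 with BMP4 and FGF8, 60.5 with BMP4 11 h and 49.3 with BMP4 and FGF4. T varied more than Sox2, by 10.9 times between its highest and lowest library. The ratio of Sox2 to T in CPM was 0.417 at 0 h, 4.23 at 96 h, 0.466 with BMP4 5 h, 0.480 with BMP4 and FGF8, 0.740 with BMP4 11 h and 2.48 with BMP4 and FGF4. T itself was at 86.9, 7.995, 81.4, 76.7, 46.7 and 11.5 CPM in the same order of libraries.

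Pax6, a paired-box and homeobox factor of neural tube progenitors, varied by 1.37 times between its lowest and highest library. It was at 15.4 CPM at 0 h, 21.2 at 96 h, 15.9 with BMP4 5 h, 16.2 with BMP4 and FGF8, 19.9 with BMP4 11 h and 18.8 with BMP4 and FGF4. The 3 libraries high in Pax6 were those low in Sox1. Its antisense gene Pax6os1 did not follow this order, being highest with BMP4 11 h (523 CPM) and lowest with BMP4 and FGF4 (359 CPM).

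Olig2 and Neurog2, basic helix-loop-helix factors of motor neuron progenitors and of neurogenesis, split the libraries into a low and a high group. Olig2 was at 3.25 CPM at 0 h, 13.5 at 96 h, 3.70 with BMP4 5 h, 3.95 with BMP4 and FGF8, 11.4 with BMP4 11 h and 11.6 with BMP4 and FGF4. Neurog2 was at 4.002 CPM at 0 h, 8.60 at 96 h, 3.94 with BMP4 5 h, 3.89 with BMP4 and FGF8, 9.06 with BMP4 11 h and 8.29 with BMP4 and FGF4. For each gene the 0 h and 5 h libraries formed a low group and the 96 h and 11 h libraries a high group, and the counting intervals of the groups did not overlap. Olig2 at 96 h was 3.83 to 4.52 times its level at 0 h by the counting interval, and Neurog2 1.98 to 2.33 times, which places Neurog2 at the 2-fold limit.

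Gbx2, a homeobox factor that sets the hindbrain side of the midbrain boundary and is also active at the embryo's posterior end, had the opposite pattern. It was at 21.9 CPM at 0 h, 5.33 at 96 h, 19.6 with BMP4 5 h, 20.8 with BMP4 and FGF8, 8.90 with BMP4 11 h and 6.45 with BMP4 and FGF4. Its level at 96 h was 3.87 to 4.37 times lower than at 0 h by the counting interval. The counting intervals of the low libraries (96 h and both 11 h) did not overlap each other, so at this depth they differed in counts, with BMP4 11 h highest among them.

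Sox10, an HMG-box factor of migrating crest and its glial and pigment derivatives, was the only one of the 9 outside the central 95% of all genes in BMP4 5 h over 0 h. It was at 3.42 CPM at 0 h, 9.38 at 96 h, 5.95 with BMP4 5 h, 5.45 with BMP4 and FGF8, 7.27 with BMP4 11 h and 7.79 with BMP4 and FGF4. The BMP4 5 h level was 1.59 to 1.91 times that at 0 h by the counting interval. On the log2 scale with 0.5 CPM added this was 0.72, whereas the central 95% of all 13539 genes lay between -0.22 and 0.31 in the same comparison. Markers of fibroblasts, which include the feeder layer, also differed between these libraries: 6 of 12 were at least 2-fold higher with BMP4 5 h than at 0 h, with Postn at 20.96 against 2.71 CPM. Of all genes, 0.281% were higher by this limit. The summed CPM of that list was 755 at 0 h, 1274 at 96 h, 846 with BMP4 5 h, 773 with BMP4 and FGF8, 1058 with BMP4 11 h and 2027 with BMP4 and FGF4. Fn1 made up most of this sum at 0 h and went the other way (545 CPM at 0 h, 317 at 96 h). Fbln2 (25.5 CPM at 0 h, 15.3 at 96 h) and Thy1 (0.687 and 0.438 CPM) were also lower at 96 h. Without Fn1, a choice made after seeing the data, the sums were 210, 957, 331, 285, 608 and 1425 CPM in the same order (0 h, 96 h, BMP4 5 h, FGF8 added, BMP4 11 h, FGF4 added). The part of these genes in the Sox10 levels was not tested.

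Foxd3, a forkhead factor of early crest and of the epiblast, was the least abundant member. It was at 2.79 CPM at 0 h, 1.98 at 96 h, 2.93 with BMP4 5 h, 3.24 with BMP4 and FGF8, 2.75 with BMP4 11 h and 2.60 with BMP4 and FGF4. Its counting intervals overlapped among 0 h, BMP4 5 h and both 11 h libraries, with the 96 h library below them. Foxd3 and Sox10, the crest members, thus did not share a direction between 96 h and 0 h.

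**Figure D2:**
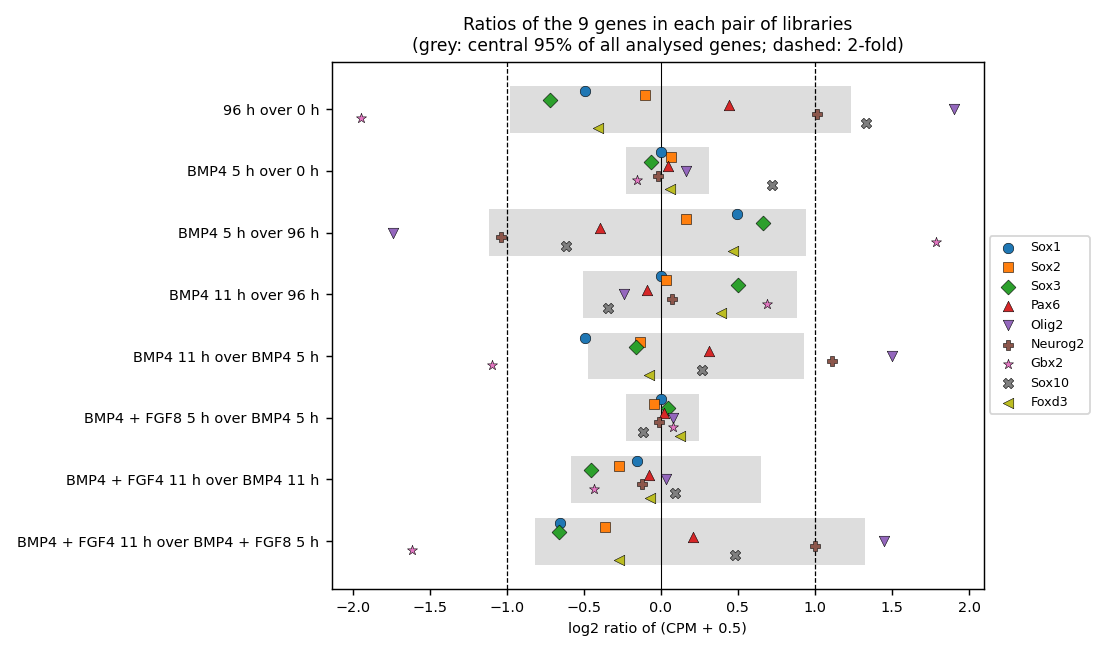
Log2 ratio of (CPM + 0.5) for each of the 9 genes (symbols, horizontal axis) in 8 pairs of libraries (rows). Grey boxes span the central 95% of all 13539 genes, and dashed lines mark 2-fold. Olig2 and Gbx2 lie outside the boxes in the rows that set 96 h or an 11 h library against 0 h or a 5 h library, Sox10 lies outside in BMP4 5 h over 0 h and 96 h over 0 h, and Neurog2 and Sox1 in BMP4 11 h over BMP4 5 h.

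In the comparison of 96 h with 0 h without growth factors, which had no growth factor on either side, 3 of the 9 members were at least 2-fold higher and 1 was lower. Over all genes 5.96% passed this limit, 3.6% higher and 2.36% lower. The log2 ratios were 1.90 for Olig2, 1.33 for Sox10, 1.02 for Neurog2 and -1.94 for Gbx2. Sox3 (-0.72), Sox1 (-0.49), Foxd3 (-0.41), Pax6 (0.44) and Sox2 (-0.10) did not reach 2-fold. The median of the 9 was -0.10, beside 0.00 (-0.00196 before rounding) for all genes. With 2 CPM added in place of 0.5, Neurog2 was under 2-fold, at 0.82.

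With BMP4 for 5 h, 1 member was at least 2-fold higher and 2 were lower than at 96 h, beside 2.23% and 3.03% of all genes (5.26% in either direction). Gbx2 had a log2 ratio of 1.79, Olig2 of -1.74 and Neurog2 of -1.04. The remaining ratios were 0.66 for Sox3, 0.50 for Sox1, 0.47 for Foxd3, 0.17 for Sox2, -0.40 for Pax6 and -0.62 for Sox10. Against 0 h, no member reached 2-fold, beside 0.281% of all genes higher and 0.0665% lower. BMP4 5 h over 96 h shares the 96 h library with 96 h over 0 h, and BMP4 5 h over 0 h shares the 0 h library with it. With 2 CPM added, Neurog2 was under 2-fold in BMP4 5 h over 96 h, at -0.84.

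After 11 h of BMP4, no member differed 2-fold from 96 h, where 2.15% of all genes did, 1.91% higher and 0.236% lower. The largest ratios were 0.69 for Gbx2, 0.50 for Sox3 and 0.39 for Foxd3, and the lowest were -0.35 for Sox10 and -0.24 for Olig2. Sox1 (0.00188) and Sox2 (0.03) were at nearly the 96 h level. The sign of such small ratios depended on the scaling. By the library's total count Sox1 was at -0.08, Sox2 at -0.05 and Neurog2 at -0.01 in place of 0.07, with a median of -0.10 over all genes.

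Between BMP4 11 h and BMP4 5 h, Olig2 (log2 ratio 1.498) and Neurog2 (1.11) were at least 2-fold higher and Gbx2 (-1.10) lower, beside 2.18% and 0.303% of all genes (2.48% in either direction). The pair of libraries with added FGF gave the same 3 genes: Olig2 1.45, Neurog2 1.00 and Gbx2 -1.61, beside 4.14% of genes higher and 1.78% lower (5.92% in all). In that pair FGF4 and FGF8 differ as well as the time. With 2 CPM added, only Olig2 of the 9 genes passed 2-fold in BMP4 11 h over 5 h (log2 ratio 1.23), Neurog2 being at 0.90 and Gbx2 at -0.99, and Neurog2 was also under 2-fold in the pair with added FGF, at 0.80.

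The one contrast with 2 libraries on each side sets both 11 h libraries against both 5 h libraries. Libraries of one time differ in the added FGF and are not replicates, so the spread used here holds the FGF difference too. Both libraries of the 5 h side are the ones near 0 h, and treatment time and this nearness cannot be told apart. By edgeR's quasi-likelihood test with Benjamini-Hochberg adjustment over 13539 genes, 4 of the 9 members passed an adjusted p of 0.05, 2 in each direction, beside 2.37% of all genes (2.05% higher and 0.318% lower at 11 h). Olig2 was higher at 11 h (mean 11.5 against 3.83 CPM, fitted log2 change 1.59, edgeR adjusted p = 0.00866), as was Neurog2 (8.67 against 3.91 CPM, 1.15, adjusted p = 0.0181). Gbx2 was lower at 11 h (7.67 against 20.2 CPM, -1.40, edgeR adjusted p = 0.0302), and so was Sox1 (10.7 against 16.2 CPM, -0.60, adjusted p = 0.0415). Each of these 4 held its direction in 2 of 2 libraries, but so did every other member, so this does not set the 4 apart. Pax6 (0.27), Sox10 (0.40), Sox2 (-0.25), Sox3 (-0.41) and Foxd3 (-0.21) had edgeR adjusted p-values between 0.0951 and 0.365. Without the BMP4 5 h library, or without the BMP4 with FGF8 library, no member passed. Over the alternatives of this fit the adjusted p (edgeR or DESeq2) ranged from 3.68e-30 to 0.122 for Olig2, from 5.66e-14 to 0.242 for Neurog2, from 3.45e-12 to 0.224 for Gbx2 and from 5.57e-05 to 0.389 for Sox1.

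No member differed 2-fold between the libraries with and without added FGF at either time, and few of all genes did. With FGF8 at 5 h the 9 log2 ratios lay between -0.12 (Sox10) and 0.13 (Foxd3), and 0.155% of all genes passed 2-fold, 0.148% higher and 0.00739% lower. With FGF4 at 11 h, 1.6% of all genes passed, 1.0% higher and 0.591% lower, and the members lay between -0.45 (Sox3) and 0.09 (Sox10). Gbx2 (-0.44), Sox2 (-0.27) and Sox1 (-0.16) were also lower with FGF4, while Olig2 was at 0.03, Neurog2 at -0.12, Pax6 at -0.08 and Foxd3 at -0.07. Scaled by the library's total count, the median of all genes in this comparison was 0.11, Sox3 was at -0.31, Gbx2 at -0.30, Sox2 at -0.13 and Sox1 at -0.02, and Pax6 (0.06), Foxd3 (0.05) and Neurog2 (0.01) changed sign. FGF8 and FGF4 were given at different times, so their values are set side by side without a comparison.

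The 4 called members differed at least 2-fold between 96 h and 0 h, and the BMP4 libraries can be placed along that distance on the log2 scale, with 0 h at 0% and 96 h at 100%. Olig2 was at 8.72% with BMP4 5 h, 13.0% with FGF8 added, 87.5% with BMP4 11 h and 89.2% with FGF4 added. Neurog2 was at -2.08%, -3.56%, 107% and 95.01% in the same order, and Gbx2 at 8.02%, 3.90%, 64.5% and 87.0%. Sox10 was at 53.9%, 45.1%, 74.0% and 81.1%, so its 5 h libraries stood midway. Over the 807 genes that differed 2-fold between 96 h and 0 h, the medians were 6.57%, 7.26%, 59.5% and 92.8%. Matching columns to names favours values within the range of the untreated libraries, so these positions are a description.

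**Figure D3:**
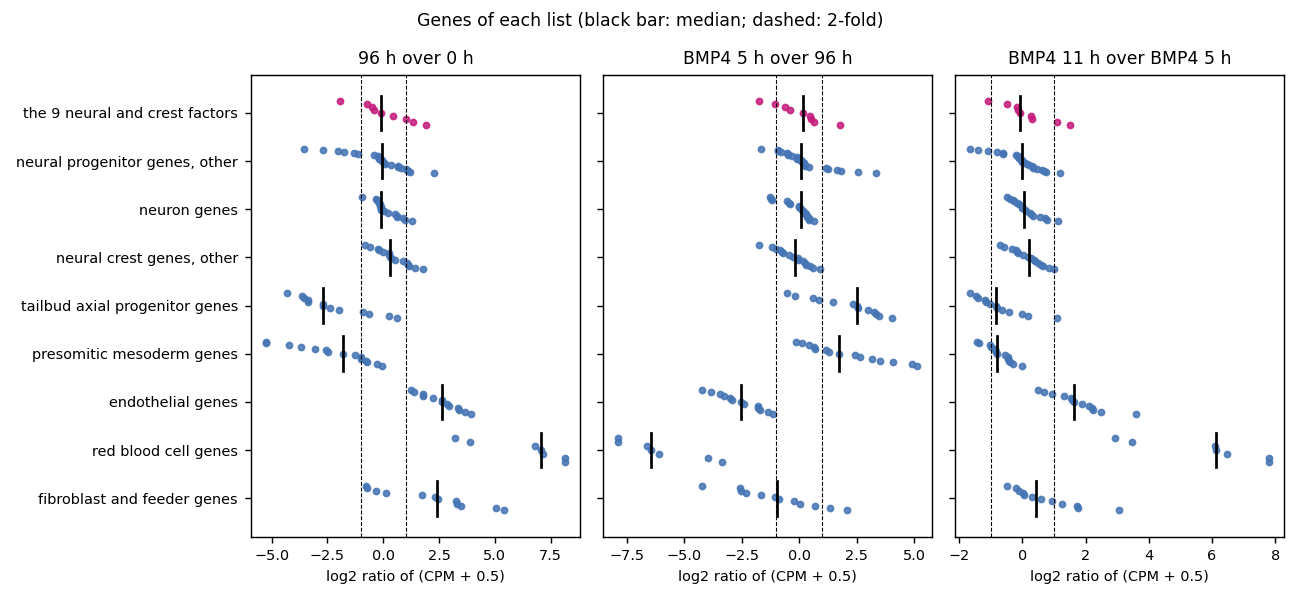
Log2 ratio of (CPM + 0.5) of single genes (points) in the 9 neural and crest factors and 8 other gene lists (rows), for 96 h over 0 h, BMP4 5 h over 96 h and BMP4 11 h over BMP4 5 h (panels). Black bars are medians and dashed lines 2-fold. The medians of the neural progenitor and neuron rows lie between -0.09 and 0.08 in each panel, while tailbud, presomitic, endothelial, red blood cell and fibroblast rows are displaced. In the order of the panels, the medians are 2.39, -0.97 and 0.45 for the fibroblast row and 0.31, -0.18 and 0.23 for the crest row.

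Other genes of neural progenitors differed in both directions. Of 28 on the list 25 were analysed, and between 96 h and 0 h 5 were at least 2-fold higher, 6 lower and 14 neither, with a median log2 ratio of -0.05. Over all genes 3.6% were higher and 2.36% lower. Zic1, a zinc finger factor of dorsal neural tube and somite, was at 23.8 against 4.50 CPM. Nkx1-2 (1.48 against 22.6 CPM) and Hes3 (2.11 against 16.7 CPM) were lower, and both are also on the tailbud list. The progenitor genes Msi1, Prom1, Sox21 and Irx3 spanned at most 1.28 times between libraries. With BMP4 5 h over 96 h, 6 were higher and 1 lower, beside 2.23% and 3.03% of all genes. With BMP4 11 h over 5 h 1 was higher and 3 lower, beside 2.18% and 0.303% of all genes.

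Of 20 genes of differentiating neurons 18 were analysed. Their summed level lay between 85.3 and 94.7 CPM in all 6 libraries, while 5 of the 18 spanned at least 2-fold between libraries, with Lhx3 the widest at 6.80 times. Between 96 h and 0 h only Neurod4, a basic helix-loop-helix factor of neurogenesis, passed 2-fold (7.52 against 2.78 CPM), and the median log2 ratio was -0.09. In that comparison 5.96% of all genes passed. With BMP4 5 h over 96 h, 3 of 18 were lower and none higher, beside 3.03% and 2.23% of all genes. The neuronal tubulin gene Tubb3 was at 15.1 CPM at 0 h and 13.2 at 96 h. The motor neuron factor Lhx3 stood at 0.348 CPM at 0 h, 1.14 at 96 h, 0.170 with BMP4 5 h and 0.957 with BMP4 11 h. On the same list and in the same libraries, Isl2 took this order too (0.706, 1.71, 0.483 and 0.951 CPM). Mnx1 went the other way (2.32, 0.942, 1.74 and 1.11 CPM), and Isl1 varied little (15.1, 14.1, 13.8 and 16.5 CPM). Chat, the acetylcholine-synthesizing enzyme of motor neurons, and the synaptic gene Syt1 were not among the genes analysed.

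Of 21 other neural crest genes 16 were analysed, and 5 were at least 2-fold higher and none lower at 96 h than at 0 h, with a median log2 ratio of 0.31. Over all genes 3.6% were higher and 2.36% lower. Snai2, a repressor active when crest leaves the neural tube, was at 17.6 against 4.75 CPM, and Ednrb, a receptor of crest cells, at 18.9 against 6.71 CPM. Twist1 (58.7 against 25.9 CPM) and Tfap2b (11.8 against 5.25 CPM) were also higher. Other genes of the list were lower at 96 h, though under 2-fold with 0.5 CPM added. Among them were Snai1 (18.1 against 27.6 CPM), Tfap2a (5.78 against 6.64), Pax3 (26.4 against 31.6) and Pmel (0.469 against 1.24). Fibroblast markers were higher in 8 of 12 cases in the same comparison, and their part in the levels of the crest genes was not tested. Erbb3 and Mitf, genes closer to crest glia and pigment cells, were under 2-fold: Erbb3 was at 6.09 against 5.06 CPM and Mitf at 1.82 against 1.42 CPM. Sox8, Sox9, Dct and Cdh19 were not among the genes analysed.

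The tailbud and presomitic lists were mostly lower at 96 h. At 96 h over 0 h, 9 of 13 tailbud genes were lower and none higher (median log2 ratio -2.72), and 9 of 15 presomitic genes were lower (median -1.79). With BMP4 5 h over 96 h, 9 of 13 and 10 of 15 were higher. Of all genes, 2.36% were lower in the first comparison and 2.23% higher in the second. Of the 9 factors only Gbx2 took the same direction in both comparisons at 2-fold. Red blood cell genes, by contrast, took the direction of Olig2 and Neurog2: their summed level was 20.7 CPM at 0 h, 5101 at 96 h, 26.3 with BMP4 5 h, 139 with BMP4 and FGF8, 4781 with BMP4 11 h and 3083 with BMP4 and FGF4. Endothelial genes did so too, with 13 of 13 higher at 96 h than at 0 h, beside 3.6% of all genes. What part these cell types have in the levels of the neural factors was not tested.

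Among the 521 genes with a mean of at least 5 CPM and at least a 2-fold span over the 6 libraries, those with the pattern most like a member were named by Pearson's r of log2(CPM + 0.5). With 6 libraries that fall into a few levels, r is a description only. For Olig2 they were Ermap, Acp5 and Sptb (r = 1.00, 0.999 and 0.998), of which Ermap and Sptb are red blood cell membrane genes. Ermap was at 0.0859 CPM at 0 h and 13.4 at 96 h, so its span was far wider than that of Olig2. Neurog2 was most like Phlda2, Alas2 and Twist2 (r = 0.990 for each), and genes most like Gbx2 included Ifngr2 and Celsr1 (r = 0.998 and 0.997). Sox10 was most like Ncald, Postn and Myl9 (r = 0.970, 0.964 and 0.955), with Ncald at 4.48 CPM at 0 h, 10.6 at 96 h, 5.96 with BMP4 5 h and 8.002 with BMP4 11 h.

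**Figure D4:**
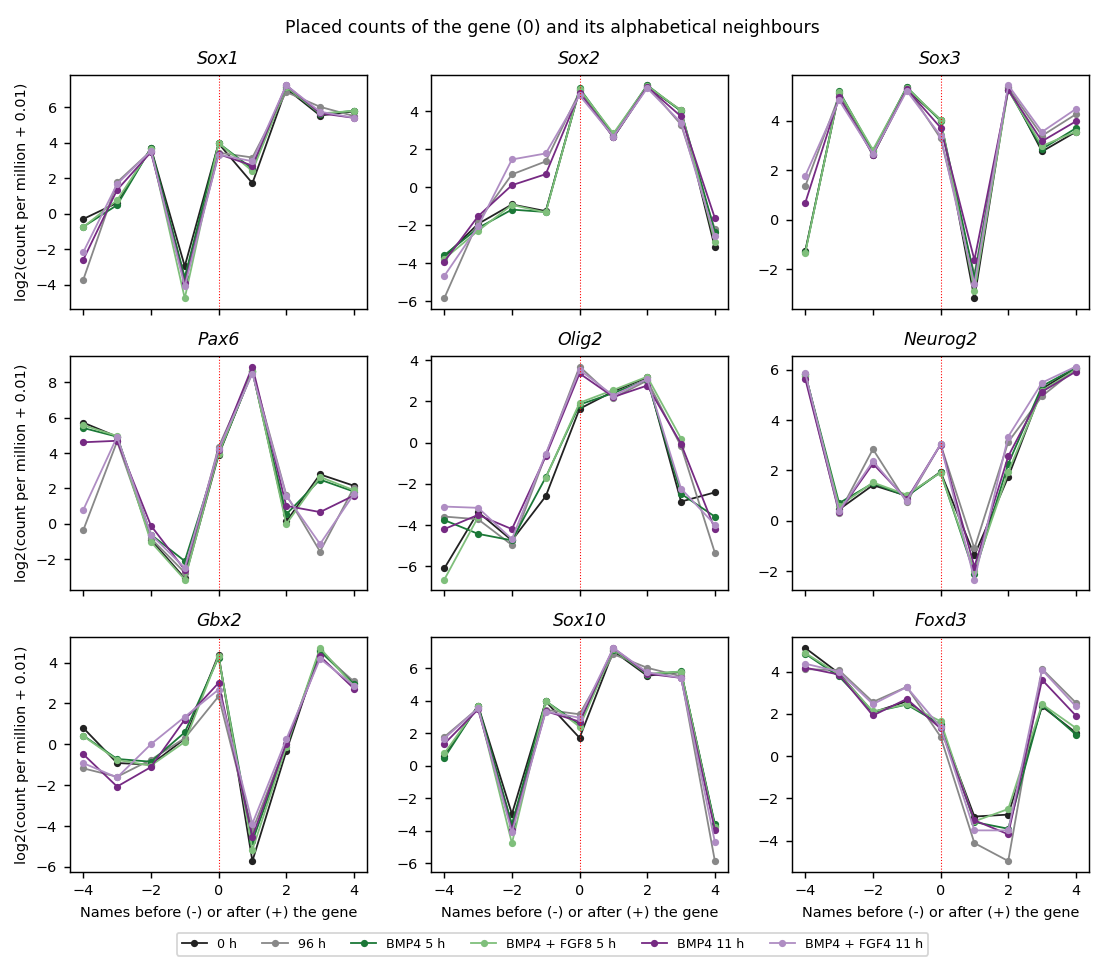
Counts scaled to the library's total count (CPM, vertical axis, log2 after adding 0.01) for each of the 9 genes (position 0) and the 4 names before and after it in alphabetical order, in the 6 libraries (colours). Around each gene the matched columns largely follow the order of levels in the untreated libraries, less closely among low counts such as those of Omd, 3 names after Olig2.

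The levels in the 4 growth factor libraries rest on matching their columns to the names, and each member was checked for it. For 8 of the 9 genes, any other row would have cost at least 8.04 units (nats of log likelihood) more in every column, against a required 5. Olig2 was the least secure, at 6.69 units. When the 2 columns of 5 h, and the 2 columns of 11 h, were aligned directly with each other, all 9 members were paired with the same rows. So were 99.9% of the 16501 kept genes at 5 h and 99.8% at 11 h, and the pairing therefore does not set the members apart. Olig3, the next name after Olig2, was at 1228 counts at 0 h, 1228 at 96 h, 1156 with BMP4 5 h and 830 with BMP4 11 h.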

How the data were processed

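The authors deposited whole-number counts of reads per gene, not normalized, with 1 column per library. HTSeq, DESeq, cutadapt, STAR 2.4.0e and the mm10 build are named, without roles, per the submitters' processing notes; a stranded total RNA kit was used, per the labels' protocols. Even numbers make up 65.4% to 70.9% of the values from 1 to 20; should each mate have been counted, counting intervals are too narrow.

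The 19342 names stand beside as many untreated values, but the other columns hold 19415 to 19826. Names were sorted without regard to case, and each of these columns was matched in order to the range of the untreated columns, with rows allowed to be extra or absent. Row by row, log2 counts correlated with 0 h at r of 0.0471 to 0.135; once matched, at 0.959 to 0.989. The match seeks like levels, so this r is no independent check. Genes whose next best match cost at least 5 units more in all 4 columns were kept (16501, holding 95.3% to 95.6% of counts); strong changes beyond the untreated range are kept less often. The method was tested on simulated columns only. They were blends of the untreated libraries with some genes changed, so most values lay near the range that the matching favours.

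CPM used TMM effective library sizes (edgeR 4.0.16, R 4.3.3). Genes with at least 1 CPM in 1 library were analysed. Ratios have 0.5 CPM added; a gene is called at 2-fold or more where the 95% counting interval (Clopper-Pearson, exact) of the ratio without addition excludes 1. Poisson intervals are exact. Coordinates and exon lengths are from GENCODE M21. Alternatives included DESeq2 1.42.0. Members and lists were chosen with earlier results of these data known. Named genes are the members, up to 4 called genes of each list with the largest ratios, further list genes chosen after their values were seen, and the 3 genes most like each member that spans at least 2-fold; some genes this rule names are not reported here. Promoters of 7 of the 9 members were found in the RefSeq table.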

Additional observations from a re-analysis of the deposited data

How the results depend on the processing

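With 1 library per condition the ratios have no replicate check, and depth limits only counting error. No called ratio of a member reversed under any alternative. The number of members called at 2-fold changed by more than 1.5 times in these cases. With 2 CPM added, BMP4 11 h over 5 h had 1 in place of 3. With placement on the 0 h column alone, where Olig2 and Gbx2 were not securely placed, 96 h over 0 h had 2 in place of 4, and BMP4 5 h over 96 h, BMP4 11 h over 5 h and BMP4 with FGF4 over BMP4 with FGF8 had 1 each in place of 3. Over all genes, 295 of 12474 were then higher and 193 lower in 96 h over 0 h, in place of 488 and 319 of 13539. In the other comparisons, in the order given, 188, 208 and 373 were higher and 261, 16 and 131 lower. With placement on both columns these were 302, 295 and 560 higher and 410, 41 and 241 lower. With a limit of 1.5-fold, BMP4 5 h over 0 h had 1 and BMP4 11 h over 96 h had 1 in place of 0, and BMP4 5 h over 96 h and BMP4 with FGF4 over BMP4 with FGF8 had 5 each in place of 3, beside 0.879%, 6.95%, 11.7% and 13.3% of all genes at that limit. Olig2 and Foxd3 dropped out with placement on the 96 h column alone or a minimum of 10 units, and Olig2 also with a placement cost that grows with the width of the untreated range (4.14 units), an alternative chosen after seeing the data. Foxd3 dropped out with a minimum of 5 CPM.

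For both 11 h against both 5 h libraries, edgeR called 321 genes, 555 with no filter on low counts, and DESeq2 called 1907. Leaving out 1 library gave 13 to 5762 called genes and 0 to 8 called members in place of 4: 13 genes without BMP4 5 h, 21 without BMP4 with FGF8, 5762 without BMP4 11 h and 3224 without BMP4 with FGF4. These fits have 1 library on one side, which is assumed to vary like the others; the cause of the differing counts was not tested. No paired analysis was possible because the labels give no replicate numbers and each condition has 1 library.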

Other observations

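In the matched columns, some rows had no gene name: 290 with BMP4 5 h, 311 with BMP4 and FGF8, 536 with BMP4 11 h and 721 with BMP4 and FGF4. They are not analysed here.

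Of 15 other Sox genes 9 were analysed, and 2 of them spanned at least 2-fold between libraries. Sox11, a SOXC factor of young neurons and progenitors, was at 138 CPM at 0 h, 121 at 96 h, 145 with BMP4 5 h and 167 with BMP4 11 h. Sox4, its SOXC relative, was at 43.1, 42.3, 39.7 and 42.1 CPM in the same libraries. The 2 called between 96 h and 0 h were Sox17 (1.65 against 0.544 CPM) and Sox18 (2.67 against 0.425 CPM), SOXF factors of endothelium, beside 5.96% of all genes called.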
